A study of Mus musculus with 6 samples.

Results

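Clone A4 and clone A5 are sister lines of mouse embryonic stem (ES) cells that carry the same inducible transgene, and they were compared here to see how far independently picked clones differed in gene expression. Both derive from the EBRTcH3 (EB3) line, in which a tetracycline-repressible cassette sits at the ROSA26 locus, and both carry the human GTF2IRD2 coding sequence with a 3xFLAG tag. With tetracycline in the medium the transgene is repressed (uninduced, 0 hours), and removal of the drug for 24 hours releases it (induced). Each clone gave 1 uninduced and 1 induced array, so the comparison held 2 A4 arrays and 2 A5 arrays of the 6 in the series, chosen by the clone name in their titles. The arrays of the remaining clone were not used. Each line is a single clone, so a difference between A4 and A5 is a difference between these cultures, and clone and any event private to a clone cannot be told apart. All cells had been selected with puromycin and were grown undifferentiated on gelatin in serum with leukemia inhibitory factor (LIF).

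The Affymetrix arrays held 45101 probe sets, short oligonucleotide groups that each report the level of a transcript. After 64 control probe sets were set aside, 45037 were tested, and the results below are given for the 34925 probe sets (18184 genes) that carried exactly 1 gene symbol and did not lie on chromosome Y. Values are RMA levels, on a log2 scale, so a difference of 1 is a 2-fold difference. The uninduced pair (A4 minus A5 with tetracycline) and the induced pair (A4 minus A5 without it) share no array and give 2 separate measurements of the clone difference. A probe set was called when the Benjamini-Hochberg adjusted p of limma's moderated test, with induction as a covariate, was under 0.05.

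Each ES clone is the progeny of a picked colony, and sublines of ES cells are known to drift apart in chromosome content, in imprinted and DNA-methylated genes, and in how much of the culture sits in the naive state. Rhox5, Dppa3 and the primitive endoderm genes are familiar readouts of such variation in serum cultures, and genes that lie side by side on a chromosome can be compared when a segment is in question. These are background facts and not readings of the present arrays.

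The 4 arrays were close in scale, with medians of 5.05 to 5.06 over the tested probe sets and pairwise correlations of 0.997 to 0.998. All 7 ES cell markers were high in both clones, between 11.43 (Sall4) and 13.93 (Dppa5a), and differed between the clones by -0.14 to 0.14. Of the 24 measured markers of fibroblasts, primitive endoderm, mesoderm, neural cells and trophoblast, 0 were called, and their values lay between 2.44 and 6.69. Averaged over the poly-A spikes the level was 5.95 on the A5 uninduced array against 6.29 to 6.41 on the other arrays, and the 18S rRNA control ran from 7.90 (A4 uninduced) to 12.66 (A5 uninduced). The part of these control differences in the results was not tested. The human transgene has no probe set here. The mouse Gtf2ird2 probe set read 6.04 and 6.51 in A4 (uninduced, induced) and 6.36 and 6.37 in A5, and it checks nothing about the transgene.

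Few probe sets separated the clones. The test called 26 of the 45037 probe sets (0.0577%). Of these, 9 carried no gene symbol or lay on chromosome Y. Those 9 differed by -5.64 to 0.98 and are given near the end. Among the 34925 probe sets described here, 16 were higher in A4 (0.0458%) and 1 was lower (0.00286%). They belonged to 14 genes (0.077% of 18184): Tesk2, Gm6958, Urod, Hpdl, Rhox5, Eif2b3, Toe1, Tmem30b, Mmachc, Btbd19, Dppa3, Zswim5 and Psip1 on the A4 side and Synpo2l on the A5 side. In each of the 17 called probe sets both A4 arrays lay on the same side of both A5 arrays, and each differed by at least 1.5-fold in both pairs. A call on these same 4 arrays nearly requires both traits, so they are no separate support. All 17 lost their call when any 1 of the 4 arrays was left out, in fits of 3 arrays with no induction term, while the differences of the 14 genes, by their best probe set, then ranged in size from 0.70 to 1.26.

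**Figure D1:**
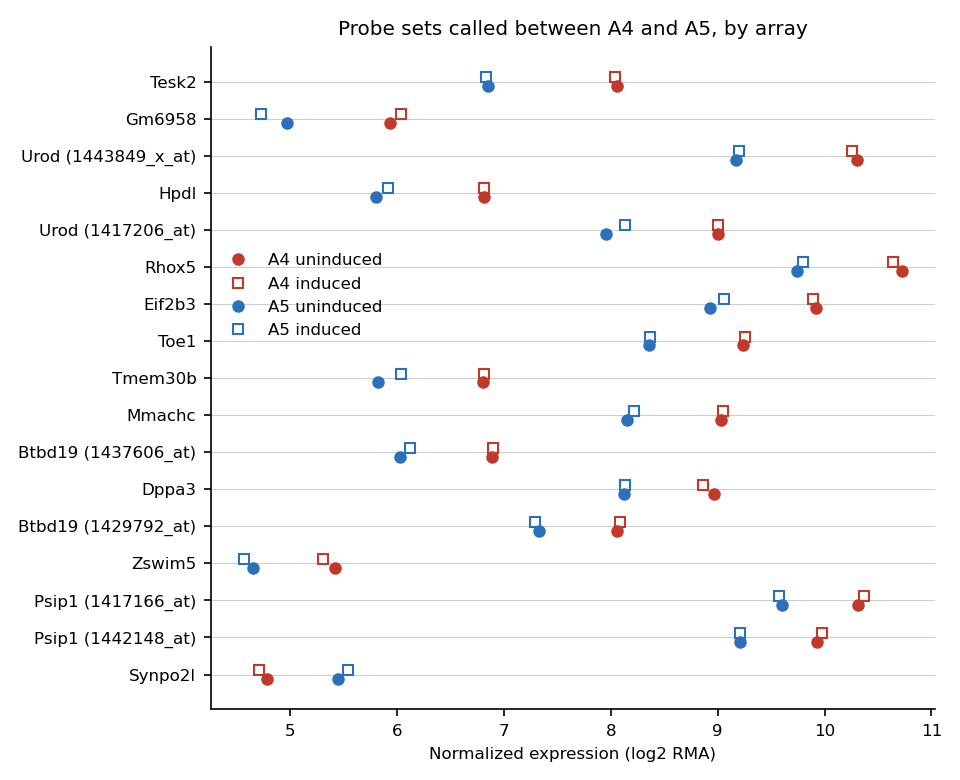
Normalized expression (x axis, log2 RMA) of the 17 called probe sets (rows) on each of the 4 arrays. Red marks are A4, blue marks are A5, filled circles are uninduced and open squares induced. In the top 16 rows both A4 arrays lie to the right of both A5 arrays, and in the bottom row, Synpo2l, they lie to the left.

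Of the 14 called genes, 8 are neighbours on chromosome 4. In the order of the reference gene table (GRCm38.p6, used here for names and order), the 11 measured genes Mmachc, Ccdc163, Tesk2, Toe1, Mutyh, Hpdl, Zswim5, Urod, Hectd3, Eif2b3 and Btbd19 follow each other without a gap of a measured gene, and every one was higher in A4 in both pairs. This run was noticed after the values had been seen, so it is described and not tested. Its limits were set where a gene fell below 0.4 in either pair. That rule itself makes the genes consecutive and higher in A4 in both pairs, so these traits are no separate result. The differences of the 11 genes, each by its brightest probe set, ran from 0.46 (Hectd3, 1.37-fold) to 1.21 (Tesk2, 2.32-fold), with a median of 0.86 (1.81-fold). The median was 0.87 in the uninduced pair and 0.84 in the induced pair.

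The start regions of the genes in this run are shown to make the arrangement concrete, since some of them are shared. Each line gives the 300 bases from 250 before to 50 after a RefSeq start (build GRCm38.p6), 5′ to 3′ on the gene's own strand, in lower case with every CG dinucleotide in capitals. They are the window that Mmachc shares with Ccdc163 (chr4:116708336-116708635, minus strand), the window that Toe1 shares with Mutyh (chr4:116807510-116807809, minus strand), and the windows of Tesk2 (chr4:116720705-116721004, plus strand) and Urod (chr4:116994364-116994663, minus strand), the genes with the widest differences.
Mmachc: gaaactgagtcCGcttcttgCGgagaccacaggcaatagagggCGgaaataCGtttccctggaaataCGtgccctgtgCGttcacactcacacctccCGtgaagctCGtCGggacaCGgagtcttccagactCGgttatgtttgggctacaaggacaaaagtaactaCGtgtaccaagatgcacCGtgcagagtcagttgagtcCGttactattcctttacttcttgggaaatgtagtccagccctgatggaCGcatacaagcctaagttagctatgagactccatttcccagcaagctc
Toe1: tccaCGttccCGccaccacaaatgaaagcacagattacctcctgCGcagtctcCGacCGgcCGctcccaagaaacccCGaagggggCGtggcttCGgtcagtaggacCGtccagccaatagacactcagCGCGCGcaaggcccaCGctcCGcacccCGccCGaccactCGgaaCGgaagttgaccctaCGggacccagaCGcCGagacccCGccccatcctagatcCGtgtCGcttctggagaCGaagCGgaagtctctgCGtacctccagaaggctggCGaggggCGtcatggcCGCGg
Tesk2: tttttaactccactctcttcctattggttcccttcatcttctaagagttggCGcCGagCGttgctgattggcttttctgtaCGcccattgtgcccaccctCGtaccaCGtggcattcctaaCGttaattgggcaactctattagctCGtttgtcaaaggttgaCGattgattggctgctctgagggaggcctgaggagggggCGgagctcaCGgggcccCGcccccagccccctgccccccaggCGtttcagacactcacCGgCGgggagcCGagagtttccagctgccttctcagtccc
Urod: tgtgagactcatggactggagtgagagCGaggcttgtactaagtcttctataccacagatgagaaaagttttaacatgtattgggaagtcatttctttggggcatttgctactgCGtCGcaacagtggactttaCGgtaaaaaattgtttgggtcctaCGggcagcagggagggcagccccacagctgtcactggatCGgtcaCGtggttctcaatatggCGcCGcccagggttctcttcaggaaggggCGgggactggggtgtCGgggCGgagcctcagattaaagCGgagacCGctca
Mmachc and Ccdc163 are transcribed away from each other and their windows share 291 bases, and those of Toe1 and Mutyh share 274 bases. The windows hold 15 (Mmachc), 32 (Toe1), 16 (Tesk2) and 14 (Urod) CG dinucleotides, and 53.7%, 14.7%, 51.3% and 56.0% of the 18115 windows of the genes used here hold at least as many. Windows were matched by gene ID for 10 of the 11 genes of the run, all but Eif2b3. Their counts ran from 2 at a second start of Mutyh (94.4% of windows hold as many) to 52 in Zswim5 (0.889%).

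Tesk2, a kinase that acts on the actin regulator cofilin, showed the widest difference. It read 8.06 and 8.04 in A4 (uninduced, induced) against 6.85 and 6.83 in A5, a difference of 1.21 (SE 0.09, adjusted p = 0.00208). On induction it moved by -0.02 in either clone, so the arrays of each clone nearly coincided. Earlier in the run, Mmachc, which processes cobalamin in the cell, read 9.03 and 9.05 against 8.15 and 8.21, a difference of 0.86 (adjusted p = 0.0173). Ccdc163, the coiled-coil gene that starts back to back with Mmachc, read 5.40 and 5.49 against 4.93 and 4.95. Its 2 probe sets differed by 0.51 and 0.55 and neither was called (adjusted p = 0.241 for both).

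Toe1, a nuclear exonuclease that trims the ends of small RNAs, read 9.23 and 9.25 in A4 against 8.36 and 8.37 in A5, a difference of 0.88 (adjusted p = 0.0149). The second Toe1 probe set differed by 0.91 with a wider gap between the pairs (1.18 uninduced, 0.65 induced) and was not called (adjusted p = 0.0661). Mutyh, the DNA glycosylase that removes adenine mispaired with oxidised guanine, read 7.39 and 7.34 against 6.74 and 6.85, a difference of 0.57 that did not pass (adjusted p = 0.188). Its A4 and A5 arrays did not overlap either.

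Hpdl, a mitochondrial relative of hydroxyphenylpyruvate dioxygenase, read 6.82 and 6.81 in A4 against 5.80 and 5.91 in A5, a difference of 0.96 (adjusted p = 0.0121). Zswim5, a zinc finger gene, read 5.42 and 5.31 against 4.65 and 4.57, a difference of 0.76 (adjusted p = 0.0369). Its other probe set differed by 0.03 (adjusted p = 0.975), so the 2 probe sets disagreed.

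Urod, uroporphyrinogen decarboxylase of the heme pathway, was called by both of its probe sets. The brighter read 10.30 and 10.25 in A4 against 9.17 and 9.20 in A5, a difference of 1.09 (SE 0.09, adjusted p = 0.00491). The dimmer read 9.0 on both A4 arrays against 7.96 and 8.13, a difference of 0.96 (adjusted p = 0.0136). Hectd3, a HECT-type ubiquitin ligase, lies next to it and had the smallest difference of the run, at 7.03 and 7.03 against 6.59 and 6.55. That difference of 0.46 was not called (adjusted p = 0.345), and a dim second Hectd3 probe set differed by 0.10 (adjusted p = 0.889).

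Eif2b3, a subunit of the exchange factor that recharges the translation initiation factor eIF2, read 9.92 and 9.89 in A4 against 8.93 and 9.05 in A5, a difference of 0.91 (adjusted p = 0.0149). Btbd19, a BTB domain gene, closed the run and was called by both of its probe sets, with differences of 0.81 (adjusted p = 0.0261) and 0.77 (adjusted p = 0.0369). The brighter read 8.06 and 8.09 against 7.32 and 7.29. In all, 10 of the 17 probe sets of the 11 genes were called. Of the 17, 16 were higher in A4 in both pairs, the exception being the second Zswim5 probe set. For the brightest probe set of each gene the limits of the run fix that direction.

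Outside the run the level of its neighbours was close between the clones. The 15 measured genes on each side had a median difference of 0.01 and ranged from -0.20 (Lrrc41) to 0.34 (Tspan1), with 0 called. The genes that touch the run, Akr1a1 on the Mmachc side and Tctex1d4 on the Btbd19 side, differed by -0.03 and 0.12. Akr1a1, an aldo-keto reductase, read 12.66 and 12.60 in A4 against 12.57 and 12.75 in A5, and Nasp, a histone chaperone beyond it, differed by -0.10. On the other flank Plk3, Kif2c and Tmem53 differed by 0.22, 0.01 and 0.18.

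**Figure D2:**
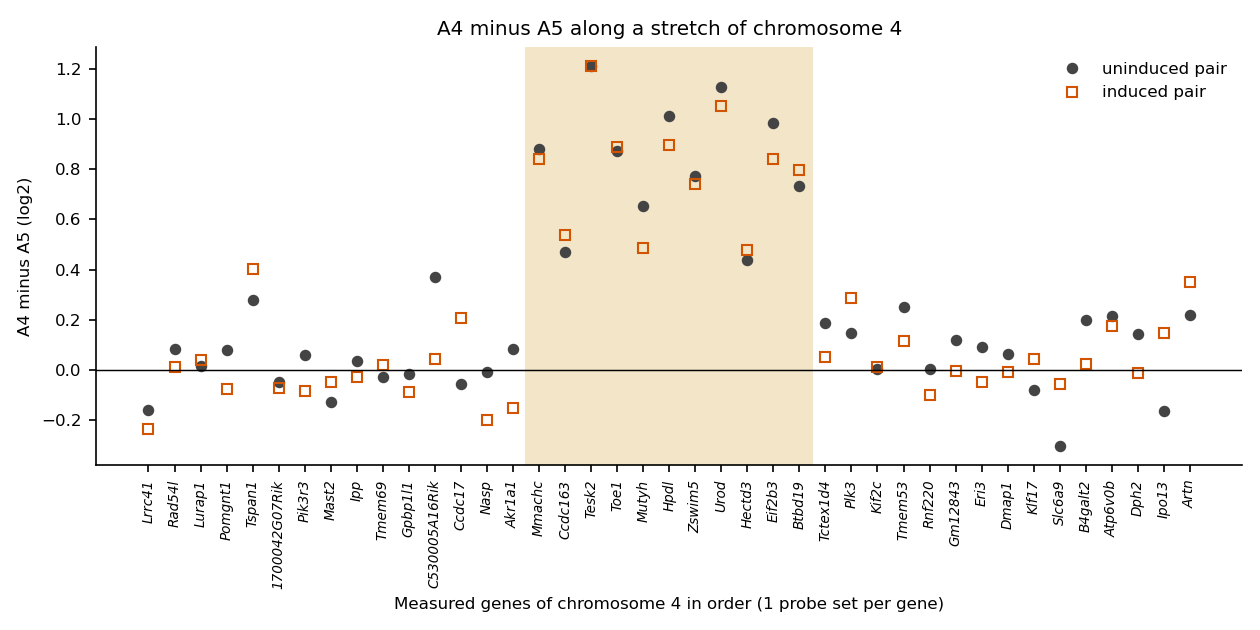
A4 minus A5 (y axis, log2) for 41 measured genes of chromosome 4 in the order of the reference table (x axis), 1 probe set per gene. Filled circles are the uninduced pair, open squares the induced pair, and the shaded band marks the 11 genes from Mmachc to Btbd19. Within the band every point lies above 0.4, by the rule that set its limits, and the 30 genes outside it have mean differences of -0.20 to 0.34.

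A running median over 11 consecutive genes, with genes of a mean level under 5 left out, laid the same differences along the chromosomes. It reached 0.86 at the run. The run was picked from these differences and also holds 11 genes, so a peak there is no separate support. Over the 11730 windows that held no gene of the run the running median stayed between -0.18 and 0.15. The median over the 1097 genes of chromosome 4 was 0.00, and 9 of them were called (0.82%, beside 0.077% of all genes), the 8 of the run and Psip1. Chromosome medians ran from -0.03 (chromosome 18) to 0.01 (chromosome 6).

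**Figure D3:**
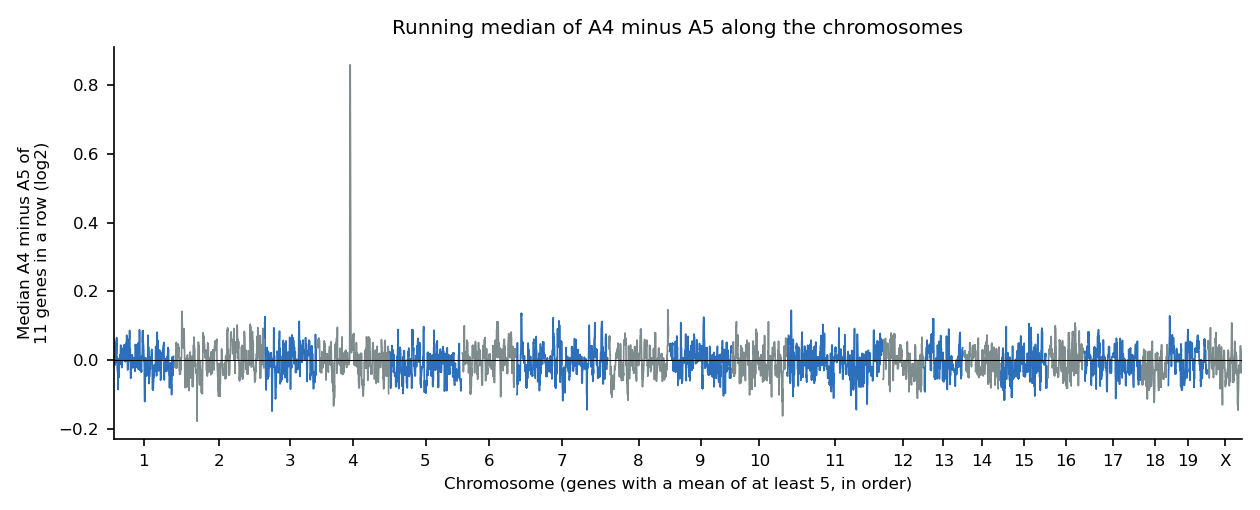
Running median of A4 minus A5 (y axis, log2) over 11 consecutive measured genes with a mean level of at least 5, along chromosomes 1 to 19 and X (x axis, alternating colours). The peak of 0.86 on chromosome 4 is the run from Mmachc to Btbd19, and windows without a gene of that run lie between -0.18 and 0.15.

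The other 6 called genes lay apart from each other, and of the 10 measured neighbours of each (5 on either side) 0 were called. Rhox5, an X-linked homeobox gene of reproductive tissues that is also active in ES cells, is shown with its start region (chrX:37754358-37754657, plus strand, the same window and marks as above) because the gene is a known target of promoter methylation.
Rhox5: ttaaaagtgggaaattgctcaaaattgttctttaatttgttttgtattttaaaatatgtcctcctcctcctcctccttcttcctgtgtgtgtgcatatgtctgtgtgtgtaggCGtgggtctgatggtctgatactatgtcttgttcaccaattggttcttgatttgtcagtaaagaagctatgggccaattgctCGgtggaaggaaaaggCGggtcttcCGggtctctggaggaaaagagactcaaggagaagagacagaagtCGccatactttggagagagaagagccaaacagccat
This window holds 5 CG dinucleotides, and 80.3% of all windows hold at least as many. Methylation was not measured in these cells. Rhox5 read 10.72 and 10.64 in A4 against 9.74 and 9.79 in A5, a difference of 0.91 (SE 0.10, adjusted p = 0.0149). The nearby members Rhox6 and Rhox9 were also higher in A4 in both pairs but were not called. Rhox6 read 8.05 and 8.08 against 7.36 and 7.50 (difference 0.64, adjusted p = 0.0876), and Rhox9 read 7.69 and 7.72 against 7.03 and 7.19 (0.59, adjusted p = 0.154). The list of X-linked reproductive homeobox and X inactivation genes (9 measured) had a median of 0.03.

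Dppa3 (Stella), a maternal factor that shields DNA from demethylation and marks naive ES cells, read 8.97 and 8.86 in A4 against 8.12 and 8.14 in A5, a difference of 0.79 (adjusted p = 0.0366). Its neighbour Nanog differed by 0.09 (adjusted p = 0.899). Tmem30b, a subunit of the flippases that turn lipids across membranes, read 6.81 and 6.81 against 5.82 and 6.04, a difference of 0.88 (adjusted p = 0.0223). Gm6958, a predicted gene, read 5.93 and 6.03 against 4.97 and 4.72 (1.13, adjusted p = 0.0107), whereas its second probe set differed by 0.54 and was not called (adjusted p = 0.191).

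Psip1 encodes LEDGF, a chromatin-binding protein made in a long and a short form, and its probe sets disagreed. A probe set at 10.31 and 10.37 in A4 against 9.60 and 9.57 in A5 differed by 0.75 (adjusted p = 0.0393), and a second differed by 0.75 as well (9.93 and 9.98 against 9.21 and 9.21, adjusted p = 0.0393). The third read 10.19 and 10.21 in A4 against 10.43 and 10.44 in A5, a difference of -0.23 (adjusted p = 0.669). Psip1 is also on chromosome 4, but outside the run, and its 10 measured neighbours differed by -0.19 to 0.19.

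Synpo2l, an actin-associated gene of heart and skeletal muscle, was the only called gene lower in A4. The called probe set read 4.78 and 4.71 in A4 against 5.45 and 5.54 in A5, a difference of -0.75 (adjusted p = 0.0465). Its other 3 probe sets differed by -0.26, 0.09 and -0.06 and were not called, and the call was lost without the induction covariate and under cyclic loess.

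To complete the side lower in A4, 9 further genes are given by their values, taken as the largest mean differences with a mean level of at least 5 and 1 sign in both pairs. None passed the test. Srgn, the proteoglycan serglycin, read 5.76 and 5.83 in A4 against 6.39 and 6.71 in A5 (-0.76, adjusted p = 0.057). Dido1, a chromatin reader, had 1 probe set at -0.69 (adjusted p = 0.0599) and 4 others between 0.08 and 0.50. Col4a1, a basement membrane collagen, read 6.47 and 6.63 against 7.31 and 7.05 (-0.63, adjusted p = 0.241), and its other probe set differed by -0.36. Snhg3, a small nucleolar RNA host gene, read 9.58 and 9.76 against 10.32 and 10.23 (-0.61, adjusted p = 0.188). Nol4l, Taf1d (a subunit of the RNA polymerase I selectivity factor), Nefh (neurofilament heavy chain), Ank2 (an ankyrin) and Jam2 (a junctional adhesion molecule) differed by -0.59, -0.58, -0.57, -0.56 and -0.56, with adjusted p from 0.182 to 0.284. For Nol4l, Taf1d, Ank2 and Jam2 the other probe sets ranged from -0.49 to 0.32, so the lower level was not shared by all of them.

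Counted without a test, 22 probe sets lay at least 1.5-fold above A5 in both pairs (0.063%) and 3 at least 1.5-fold below (0.00859%), from 20 genes together. These include all 17 called probe sets, which a call on the same arrays nearly requires. The 8 others were the second Toe1 probe set, 2 of Rab27a (0.85 and 0.70, adjusted p = 0.0777 and 0.0599), and 1 each of Atxn1l (0.68), Aurkc (0.66), Pdp1 (0.64), Dido1 and Srgn. Rab27a, a GTPase of secretory vesicles, Atxn1l, Aurkc, the Aurora kinase of meiosis, and Pdp1, a pyruvate dehydrogenase phosphatase, fell outside the rule for named genes and are listed because the count is short. At 2-fold in both pairs 2 probe sets remained, those of Tesk2 and Urod.

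Across all 34925 probe sets the clone difference of the uninduced pair correlated with that of the induced pair at r = 0.12 (rho = 0.10), a description over probe sets that share the 4 arrays. Where the mean level was 5 or more it was r = 0.20 (rho = 0.17). Signs matched in 53.1% of probe sets. A difference had a 95% confidence interval of 0.22 to each side at the median. For 99.9% of the probe sets whose mean reached 5 that interval left out a 2-fold difference in either direction. The width rests mostly on a spread shared over all probe sets (8.13 of 9.13 degrees of freedom). It therefore does not show, gene by gene, that the clones were alike.

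**Figure D4:**
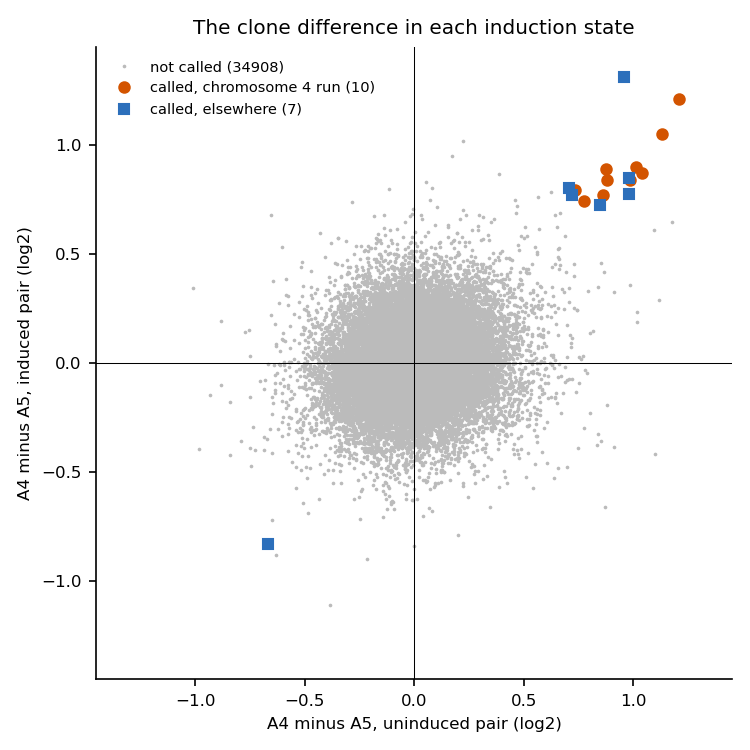
A4 minus A5 in the uninduced pair (x axis, log2) against the induced pair (y axis, log2) for the 34925 probe sets. Grey points were not called, orange circles are the 10 called probe sets of the chromosome 4 run, and blue squares the 7 called elsewhere. Of the called probe sets, 16 lie at the upper right and 1, Synpo2l, at the lower left, with 8 uncalled ones near them that also differed by at least 1.5-fold in both pairs.

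Pathways and cell states were described with 35 gene lists (653 genes, 578 of them measured), taking the brightest probe set for each gene. Of the 18184 genes so represented, 11 were called (0.0605%), and of the listed genes Dppa3, Tmem30b and Rhox5 were. The list medians ran from -0.15 to 0.16, beside 0.00 over all genes. Without adjustment, p was under 0.05 and the level higher in A4 for 3.56% of all genes, and lower for 3.62%. The counts per list at an unadjusted p under 0.05 are to be read against these shares. Signs matched in both pairs, in either direction, in 53.1% of probe sets. The share of all genes higher, or lower, in both pairs was not counted. List counts of that kind are therefore given as values only.

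The medians of the pluripotency lists lay between -0.06 and 0.00, which does not show that each gene was alike in the clones. The core list (15 measured) had a median of 0.00 with 0 called, led by Lin28a, an RNA-binding protein (-0.25, adjusted p = 0.682). In the naive list (16 measured, median -0.06) only Dppa3 was called. On average 5 of its members were higher in A4 and 11 lower. At an unadjusted p under 0.05, 1 was higher, Dppa3, and 2 were lower, Tbx3 and Tfcp2l1. Tbx3, a T-box factor of naive cells, read 8.64 and 8.57 in A4 against 8.98 and 8.90 in A5 (-0.34, adjusted p = 0.536), and Tfcp2l1 differed by -0.25 (adjusted p = 0.646). Primed epiblast genes (15 measured, median 0.00) included Otx2, at 6.17 and 6.32 against 5.59 and 5.97 (0.46, adjusted p = 0.388), and Zic2 (0.38, adjusted p = 0.548). The 2-cell-like list (8 measured) held 0 genes with an unadjusted p under 0.05.

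Among lineage genes, the primitive endoderm list (17 measured) had 0 called and a median of -0.13, with 11 members lower in A4 in both pairs and 4 with an unadjusted p under 0.05, all lower. Dab2, an endocytic adaptor of that lineage, read 4.96 and 4.84 in A4 against 5.47 and 5.33 in A5 (-0.50, adjusted p = 0.241). Lrp2, a scavenging receptor, differed by -0.38 (adjusted p = 0.491), and Gata6, the factor that specifies the lineage, by -0.37 (adjusted p = 0.558). The lists of mesoderm, early neural, trophoblast and fibroblast genes had medians of -0.06, -0.04, 0.06 and 0.00 with 0 called. Pax6 differed by 0.41 (adjusted p = 0.5) and Prrx1 by -0.48 (adjusted p = 0.27).

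The highest list median, 0.16, belonged to epithelial junctions and keratins (17 measured), of which only Tmem30b, the flippase subunit described above, was called. The list median was 0.21 in the uninduced pair and 0.07 in the induced pair. There 12 members were higher in A4 in both pairs, and 6 had an unadjusted p under 0.05 and a higher level. With the same threshold 1 was lower, the keratin Krt8 (-0.24, adjusted p = 0.665). Krt19, a keratin, read 5.99 and 6.21 in A4 against 5.36 and 5.77 in A5 (0.53, adjusted p = 0.241), and Marveld2 (tricellulin) differed by 0.37 (adjusted p = 0.491). In the list of Nodal, Activin and BMP genes (17 measured, median 0.09, 0 called) 6 members had an unadjusted p under 0.05, all higher. These included the Nodal antagonists Lefty2 (0.47, adjusted p = 0.388) and Lefty1 (0.31, adjusted p = 0.563) and the BMP target Id2 (0.45, adjusted p = 0.397). Lefty2 read 8.46 and 8.46 against 7.88 and 8.11.

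Hypoxia and glycolysis genes (23 measured, 0 called) had a median of 0.09, with 16 members higher in A4 in both pairs and 6 with an unadjusted p under 0.05, all higher. Their median was 0.19 in the uninduced pair and 0.06 in the induced pair. Egln3, an oxygen-sensing prolyl hydroxylase, read 8.73 and 8.94 in A4 against 8.0 and 8.55 in A5 (0.56, adjusted p = 0.27). Aldoc, an aldolase, read 8.48 and 8.50 against 7.69 and 8.17 (0.56, adjusted p = 0.374), and Ankrd37 differed by 0.51 (adjusted p = 0.37). In these 3 genes the A5 uninduced array was the lowest of the 4. The same array had the lowest poly-A spike level (5.95) and the highest 18S rRNA signal (12.66), and their part in these values was not tested.

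The lowest list median, -0.15, was that of germ line genes silenced by DNA methylation (22 measured, 0 called), with 13 lower in A4 in both pairs and 6 at an unadjusted p under 0.05, all lower. Ddx4, a germ cell helicase, read 7.70 and 7.85 in A4 against 8.23 and 8.15 in A5 (-0.41, adjusted p = 0.483). Sycp1, a synaptonemal complex protein, and Mov10l1, a piRNA helicase, differed by -0.37 and -0.34 (adjusted p = 0.492 and 0.536). The DNA methylation and chromatin regulators (21 measured, median -0.06) were led by the oxidase Tet1 (-0.23, adjusted p = 0.687).

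Of the imprinted genes, 17 maternally and 21 paternally expressed members were measured, with medians of -0.08 and 0.03 and 0 called. Grb10, a growth-factor receptor adaptor, read 10.77 and 10.75 in A4 against 11.31 and 11.22 in A5 (-0.51, adjusted p = 0.241), and Meg3, a long non-coding RNA, differed by -0.29 (adjusted p = 0.599). Kcnq1ot1, the antisense RNA of its imprinted domain, differed by -0.42 (adjusted p = 0.461) and Nap1l5 by 0.33 (adjusted p = 0.543). The Williams region list, the mouse genes of the interval deleted in Williams-Beuren syndrome and its flanks (28 measured), had a median of -0.03 with 0 called. Hip1, an endocytic protein gene, read 7.03 and 7.18 against 7.71 and 7.58 (-0.54, adjusted p = 0.27).

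LIF and STAT3, FGF-ERK and Wnt genes had medians of -0.06, -0.06 and -0.01 with 0 called, and they included Pias3 (-0.23), Ier3 (0.44), Etv4 (-0.30) and Sfrp1 (-0.34), with adjusted p from 0.536 to 0.69. The lists for G1 and S phase, for G2 and M phase and for p53 targets had medians of 0.00, -0.03 and 0.07, led by Cdk6 (-0.27), Cenpe (-0.31) and Perp (0.37), none called. Oxidative phosphorylation, ribosomal protein, sterol and heat shock genes had medians of 0.03, 0.01, 0.03 and -0.05, and 0 of their members had an unadjusted p under 0.05. The extracellular matrix list (20 measured, median -0.06, 0 called) held Srgn and Col4a1, described above, and Sdc4, a syndecan, at 0.38 (adjusted p = 0.492). For the lists of Hox, interferon, stress, redox and adhesion genes, 0 members were called and the medians ran from -0.08 to 0.06. The remaining list, of histone genes, had a median of 0.14 and 0 called, with only 4 of its 17 genes measured. Its pair medians had opposite signs, 0.24 uninduced and -0.07 induced.

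**Figure D5:**
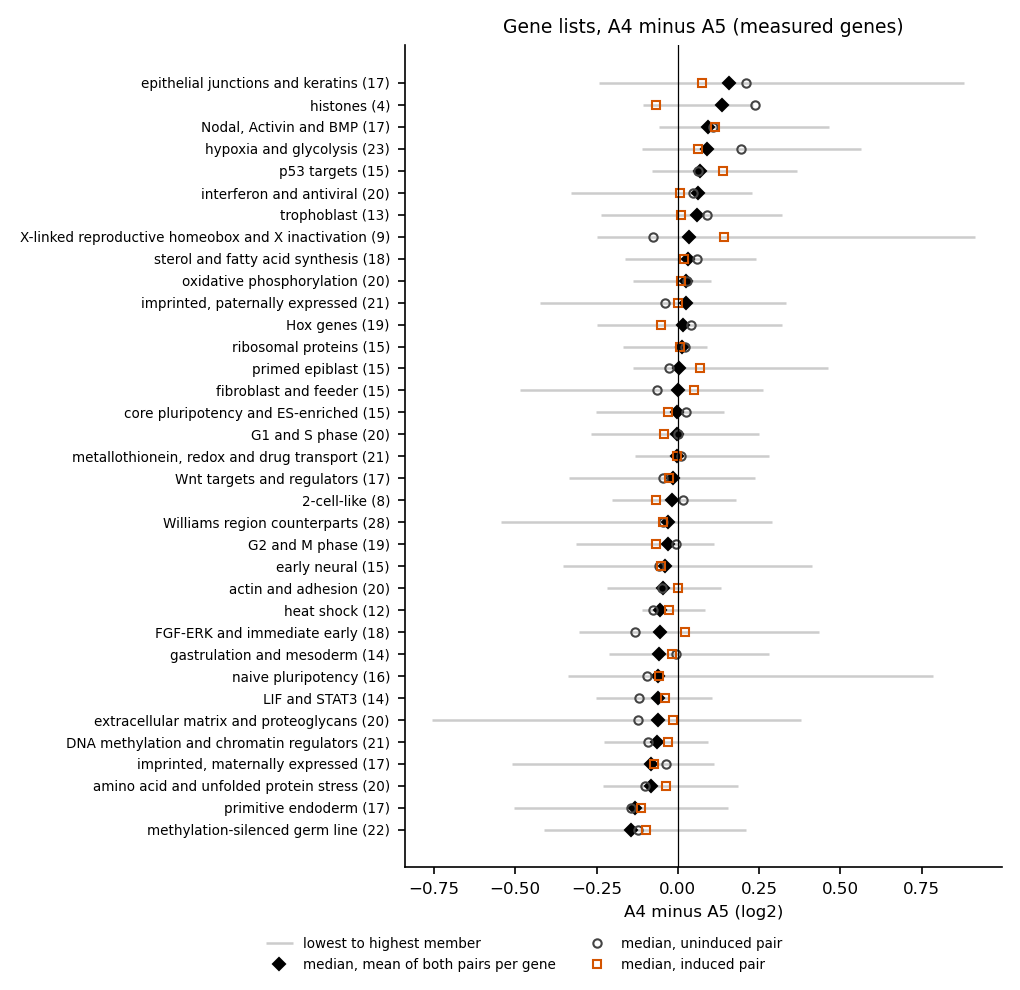
Median A4 minus A5 (x axis, log2) of the 35 gene lists (rows, with the number of measured genes). Black diamonds are medians of the mean difference, circles those of the uninduced pair, orange squares those of the induced pair, and grey lines run from the lowest to the highest member. The diamonds lie between -0.15 and 0.16, and in 3 lists a member (Rhox5, Tmem30b or Dppa3) rises above 0.75.

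Induction could be set beside the clone difference only as values, because 1 array per clone and state leaves no spread. In the run on chromosome 4 the induced minus uninduced difference ranged over its 11 genes from -0.11 to 0.08 in A4 and from -0.08 to 0.12 in A5. The clone difference of each gene changed between the states by 0.17 at most. Among the other called genes it was 0.96 uninduced and 1.31 induced for Gm6958, 0.98 and 0.85 for Rhox5, 0.98 and 0.78 for Tmem30b, and 0.85 and 0.72 for Dppa3.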

How the data were processed

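Total RNA of each ES cell culture was hybridised to an Affymetrix mouse expression array, and the authors deposited log2 RMA values (background-corrected, quantile-normalized and summarised per probe set with the affy package, versions not given in the sources used here). The small number of arrays limits the precision. Samples were grouped by the clone in their titles. limma 3.58.1 (R 4.3.3) fitted clone plus induction to the 4 A4 and A5 arrays over 45037 probe sets. Benjamini-Hochberg adjustment ran over all of them. Each probe set had 1 residual degree of freedom, to which limma added 8.13 from the spread shared over all probe sets. The p therefore reflects only how these arrays vary, and mostly that shared spread. Probe sets with several symbols (932), none (9160) or a chromosome Y gene (20) were tested but are not described. The brightest probe set stood for a gene in lists and gene order.

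Members, lists and rules were chosen with earlier results of these data known. Named genes are all called genes, each direction filled to 10 by mean difference, and up to 3 members of each list by smallest p. On simulated data of 45037 probe sets the fit recovered 72% of 50 changed 1.5-fold and 100% of 50 changed 2-fold. The simulated data also held 50 changes each of 3-fold and 4-fold, and their spread was drawn from the real fit. These shares therefore do not say how many such differences the real arrays would reveal. There Rhox9 (0.59, 1.51-fold) was not called (adjusted p = 0.154). Alternatives were no induction covariate, filters on low levels, other priors, 2 rescalings, the methods' t-test and leaving out each array.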

Additional observations from a re-analysis of the deposited data

Results flagged for a closer look

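Both pairs moved at least 1.5-fold but in opposite directions for 2 probe sets, and the difference between the pairs was not tested. Tax1bp1 differed by 0.87 in the uninduced pair and by -0.66 in the induced pair, and Rnpepl1 by -0.65 and 0.68.

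Beyond the probe sets described above, 9 called probe sets carried no gene symbol or lay on chromosome Y. The 5 without a symbol differed by -5.64, -5.46, -4.32, 0.98 and 0.85, as A4 minus A5. The 3 with the widest differences read 3.96 to 4.51 in A4 and 8.59 to 10.12 in A5. Of the 20 probe sets with 1 symbol on chromosome Y, 4 were called, beside 26 of all 45037 tested (0.0577%). These 4 differed by -5.03, -3.10, -1.83 and -0.73. In each of them both A4 arrays were lower than both A5 arrays, which a call on the same arrays nearly requires.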

How the results depend on the processing

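The direction of the 14 called genes was the same under each of the 13 alternatives that measured them (Zswim5 drops out at a mean level of at least 5). The median of the chromosome 4 run stayed between 0.83 and 0.88. Both outcomes were largely fixed in advance. Changing the covariate, level filter, prior or test leaves the difference of a probe set as it is. Each fit with an array left out reuses 3 of the same 4 arrays. The number of calls moved more. Of all tested probe sets 26 were called, against 15 without the induction covariate (no replicate block), 51 with a mean level of at least 5, 63 with an intensity trend, 17 when fitted to probe sets with 1 symbol off chromosome Y, 0 by the methods' t-test (2832 at an unadjusted p under 0.05) and 2 to 5 with an array left out. Higher in A4 were 16 of the probe sets described, against 9 without the covariate, 32 at a mean of 5 or more, 35 with the trend, 0 by the t-test and 0 with any array left out. Lower in A4 was 1, against 0 without the covariate, under cyclic loess, by the t-test and with any array left out, 7 at a mean of 5 or more, 3 at a mean of 4 or more and with equal medians, and 11 with the trend. All 17 called probe sets kept their calls with the robust prior, the trend, equal medians and a mean of 4 or more, and 9 of them without the covariate. At 2-fold in both pairs 2 of 25 probe sets remained. At a mean of 5 or more, the correlation between the pairs was 0.20 in place of 0.12 and the lowest chromosome median -0.034 in place of -0.027. The values carry no detection calls, so dim probe sets were not told apart from background, and the causes of these shifts were not tested.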
